A study of Mus musculus with 16 samples.

Results

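Plvap, Eomes, Shisa6, Pdx1, Pax7 and Tspan8 are genes whose expression marks subsets of the GFRA1-positive spermatogonia of the mouse testis, and their rows were taken by symbol from the deposited table of protein-coding genes: 6 of 21924 genes. They were measured by RNA sequencing in germline stem (GS) cells, spermatogonia propagated in culture with the growth factors GDNF and FGF2, over a feeder layer of embryonic fibroblasts. The 16 libraries form 8 groups of 2. DBA/2 wild type cells were sampled at 1% and at 20% oxygen. Cells of a 129 x C57BL/6 mixed background, labelled Hif1a KO or Hif1a wild type, were sampled at 1% and at 20% oxygen. C57BL/6 cells, Top1mt KO or wild type, were sampled at 1% oxygen only. The 1% groups were gassed with nitrogen and carbon dioxide in plastic bags, and the cells labelled Hif1a KO had received the Cre-expressing vector AxCANCre on the day hypoxia began. The series text gives 2 days at 1% oxygen, while the names of the 1% libraries carry "6d" for the Hif1a groups, "2d" for the Top1mt groups and no time for DBA/2. Names of the Hif1a libraries at 1% also carry a suffix "B" that those at 20% lack, and its meaning is not given. Nothing in the labels says whether the paired libraries came from separate cultures, so p-values measure the spread between libraries, which may be technical.

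GFRA1 is the coreceptor through which GDNF acts on undifferentiated spermatogonia, and the GFRA1-positive pool holds the cells that maintain spermatogenesis. That pool is not uniform: cells carrying one or another of these markers have been studied as candidate stem cell subsets, and most of the markers are better known from other tissues. EOMES is a T-box transcription factor of mesendoderm, trophoblast and T cells, PDX1 a homeobox factor of pancreas and duodenum, and PAX7 a paired-box factor of muscle satellite cells. PLVAP builds the diaphragms of endothelial fenestrae and caveolae, TSPAN8 is a tetraspanin of epithelial surfaces, and SHISA6 is a transmembrane protein described as a WNT inhibitor in spermatogonia and as an AMPA receptor auxiliary subunit in neurons.

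On GRCm38 (mm10) with GENCODE annotation, Plvap lies on chromosome 8 from 71497765 to 71511752, Eomes on chromosome 9 from 118478212 to 118486132, Shisa6 on chromosome 11 from 66211725 to 66525964, Pdx1 on chromosome 5 from 147269959 to 147275848, Pax7 on chromosome 4 from 139737062 to 139833528, and Tspan8 on chromosome 10 from 115816832 to 115849893. Plvap, Shisa6 and Pax7 are on the minus strand. No source used here gives the strand setting of the read counting, and without it reads of an antisense neighbour cannot be told apart. Eomes shares 118 of its 4155 exon bases with the antisense gene Gm33460 and Tspan8 shares 4 of 1702 with 4930422I22Rik. Plvap, Shisa6, Pdx1 and Pax7 share no exon bases with an annotated gene.

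Promoter sequences show what lies before the RefSeq start of the 3 transcription factor genes, whose levels were lower at 1% oxygen in each of the 3 oxygen comparisons. RefSeq windows on GRCm38.p6, 250 bases before to 50 bases after the gene start, were found for 4 of the 6 members (Eomes, Pdx1, Pax7 and Tspan8). The 250 bases before the RefSeq start are given for the 3 genes 5′ to 3′ in the direction of the gene, and capitals mark every match to the hypoxia response element cores ACGTG and GCGTG on either strand.
Eomes, chr9:118477939-118478188, plus strand: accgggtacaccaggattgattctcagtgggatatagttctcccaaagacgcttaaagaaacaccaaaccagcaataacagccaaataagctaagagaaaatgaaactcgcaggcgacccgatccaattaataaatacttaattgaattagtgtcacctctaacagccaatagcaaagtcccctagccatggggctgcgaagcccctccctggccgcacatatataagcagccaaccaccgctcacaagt
Pdx1, chr5:147269847-147270096, plus strand: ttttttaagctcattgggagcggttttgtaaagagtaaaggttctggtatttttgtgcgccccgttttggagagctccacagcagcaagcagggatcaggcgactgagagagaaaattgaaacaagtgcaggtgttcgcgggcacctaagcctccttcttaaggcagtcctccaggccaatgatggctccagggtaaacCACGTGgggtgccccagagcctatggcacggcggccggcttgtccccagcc
Pax7, chr4:139832969-139833218, minus strand: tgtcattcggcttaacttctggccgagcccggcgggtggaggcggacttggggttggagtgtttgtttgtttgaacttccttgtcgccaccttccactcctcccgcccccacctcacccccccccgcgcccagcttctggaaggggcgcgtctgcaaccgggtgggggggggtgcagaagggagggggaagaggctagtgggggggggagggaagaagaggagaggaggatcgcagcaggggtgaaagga
Pdx1 held 2 overlapping matches, CACGT starting 51 bases and ACGTG starting 50 bases before the gene start, which are one palindrome read on both strands. Pax7 held 1 match in its full window, GCGTG starting 45 bases after the gene start and so outside the printed stretch. GENCODE places the start of Pdx1 138 bases and that of Pax7 560 bases further 5′ than the RefSeq start used here, so 138 bases of the Pdx1 stretch, its matches included, and all 250 of the Pax7 stretch lie inside the GENCODE gene, against 0 for Eomes. Eomes and Tspan8 held none. Of 32851 windows of 300 bases in the same table, 19.6% held ACGTG and 32.4% held GCGTG on either strand, and 43.8% held at least 1 of the cores. A match describes letters in a window and says nothing of binding.

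Values are CPM, the reads of a gene per 1000000 reads of its library, and 1 read was worth 0.0390 to 0.0837 CPM in libraries of 11942104 to 25659895 reads. Defining germ cell markers were present in every library: Ddx4, a germ cell RNA helicase, was at 244.8 to 701.7 CPM and Dazl, a germ cell RNA-binding protein, at 387.5 to 1392 CPM over the 16 libraries. The summed CPM of 16 fibroblast genes, which the feeder cells can supply, was 4538 at 1% against 5115 at 20% oxygen in DBA/2 cells, 25900 against 7746 in Hif1a wild type cells, 48589 against 11513 in cells labelled Hif1a KO, and 29980 in Top1mt KO against 15930 in Top1mt wild type cells. The summed CPM of 8 germ cell identity genes was 3778 against 3827, 3222 against 3200 and 1450 against 2707 in the same 3 oxygen pairs, and 1921 in Top1mt KO against 2624 in Top1mt wild type cells. The targeted gene Top1mt had 10.5 ± 0.685 CPM in Top1mt KO and 33.8 ± 1.36 CPM in Top1mt wild type cells (SD, n = 2 each). Hif1a went against its label, with 605.7 ± 17.7 CPM in the libraries labelled Hif1a KO and 250.7 ± 0.0154 CPM in wild type at 1% oxygen, and 141 ± 1.86 against 117 ± 1.11 CPM at 20% (SD, n = 2 each). The gene total counts all exons and the deleted part is not given, so these values do not check the deletion. The sequencing sample numbers in the library names part the 1% from the 20% libraries of each line, so a set of that kind and oxygen cannot be told apart.

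**Figure D1:**
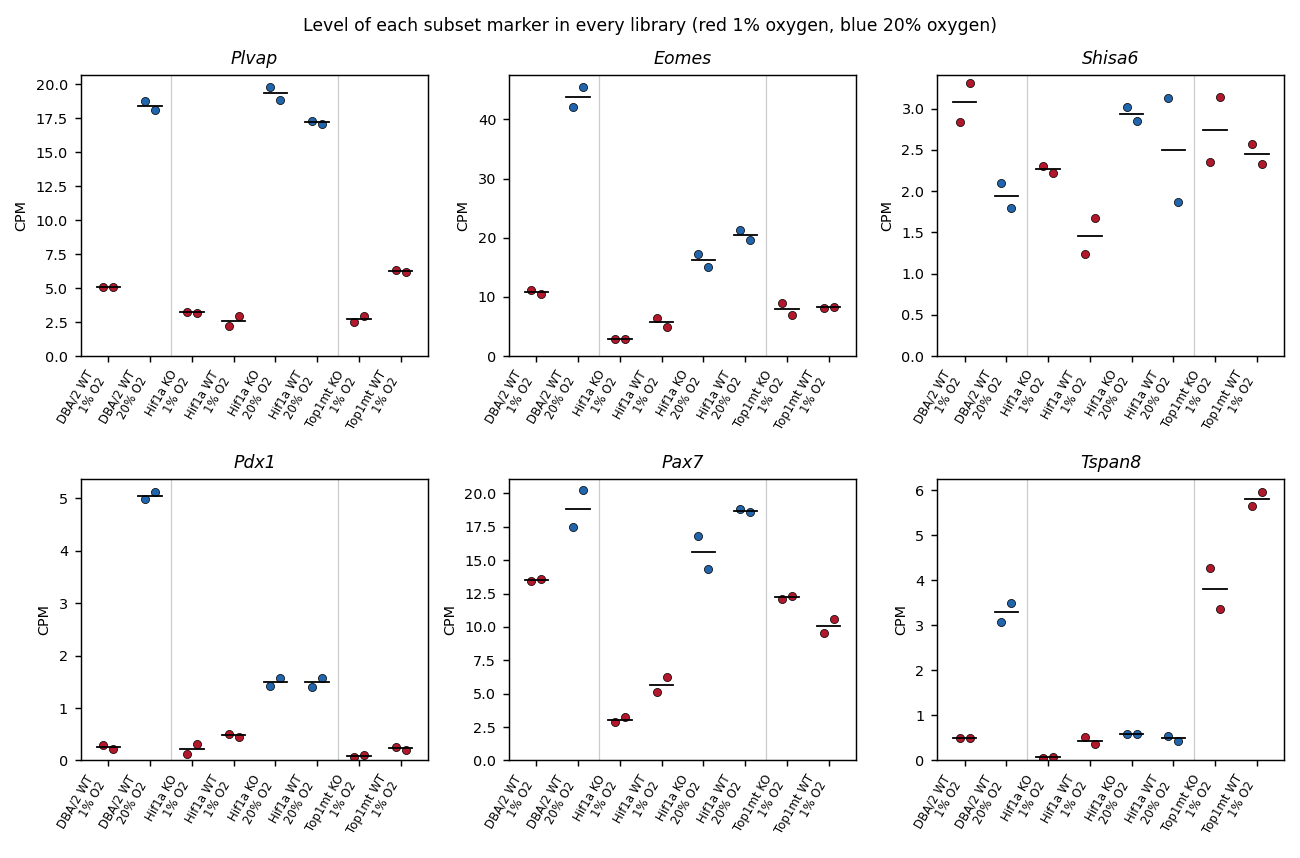
CPM of the 6 markers (y axis, linear, from 0) in each of the 16 libraries, by group (x axis). Points are libraries, horizontal bars are group means. Plvap was at 17.1 to 19.8 CPM and Eomes at 15.1 to 45.4 CPM in the 20% oxygen libraries, above every 1% library, Shisa6 stayed between 1.24 and 3.31 CPM, and Tspan8 was above 3 CPM in DBA/2 cells at 20% oxygen and in both Top1mt groups.

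The markers differed widely in level. In DBA/2 cells at 20% oxygen, levels per kilobase of exon were 10.5 ± 0.579 CPM per kb for Eomes, 9.28 ± 0.224 for Plvap, 3.22 ± 0.328 for Pax7, 2.34 ± 0.0454 for Pdx1, 1.93 ± 0.177 for Tspan8 and 0.261 ± 0.0288 for Shisa6 (SD, n = 2). Gfra1 itself stood at 45.8 ± 1.49 CPM per kb in those libraries, above every subset marker. Plvap, Eomes, Shisa6 and Pax7 reached 1 CPM in all 16 libraries. Pdx1 and Tspan8 reached it in 6 of 16 each, Pdx1 in the 20% oxygen libraries and Tspan8 in DBA/2 cells at 20% oxygen and both Top1mt groups. They passed the filter for testing through those groups. Their tests of those groups against the others are therefore partly selected, and in the others their values rest on few reads.

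Most of these markers differed between oxygen levels, and several also differed between lines at the same oxygen level. In DBA/2 cells at 1% against 20% oxygen, Plvap, Eomes, Pdx1, Pax7 and Tspan8 fell and Shisa6 rose. Over all 14841 genes tested, 25.5% were called lower and 31.8% higher in this comparison, so a call alone is common. The members' median log2 fold change was -1.59, against 0.04 over all genes tested. That median includes Pdx1 and Tspan8, whose falls are partly selected by the filter. Plvap, Eomes, Shisa6 and Pax7, which reached 1 CPM in every library, had -1.67, -1.91, 0.47 and -0.45. In these bulk libraries, fewer cells carrying a marker and less RNA of it per cell cannot be told apart.

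Pdx1 had the widest fall. It had 0.299 and 0.227 CPM in DBA/2 cells at 1% oxygen, against 4.98 and 5.12 CPM at 20%. The groups lay far apart, at 11 reads summed over the 1% libraries against 227 over the 20% libraries, a 19.2-fold lower mean CPM. Its log2 fold change on the CPM + 1 scale, which understates changes of low genes, was -2.26 ± 0.14 (SE; limma adjusted p = 1.0e-10). Of the genes tested, 0.0943% had a lower log2 fold change. That rank leans on the filter, which Pdx1 passed only through the 20% oxygen libraries.

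Eomes, the marker with the highest CPM in DBA/2 cells at 20% oxygen, had 11.2 and 10.5 CPM in DBA/2 cells at 1% oxygen, against 42.0 and 45.4 CPM at 20%. The hypoxic mean was 4.02-fold lower, with no overlap and a log2 fold change of -1.91 ± 0.12 (SE; limma adjusted p = 1.8e-10). Plvap had 5.09 and 5.12 CPM at 1% oxygen, against 18.8 and 18.1 CPM at 20%. Its libraries agreed closely within each group, and the log2 fold change was -1.67 ± 0.12 (SE; limma adjusted p = 4.8e-10).

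Tspan8 had 0.499 CPM in each DBA/2 library at 1% oxygen, against 3.07 and 3.50 CPM at 20%. The hypoxic value rested on 21 reads in all, and the log2 fold change was -1.51 ± 0.14 (SE; limma adjusted p = 3.3e-08). Pax7 moved least among the markers that fell, with 13.5 and 13.6 CPM at 1% oxygen against 17.5 and 20.2 CPM at 20%. Its groups did not overlap, at a log2 fold change of -0.45 ± 0.11 (SE; limma adjusted p = 0.0023).

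Shisa6 went the other way. It had 2.84 and 3.31 CPM at 1% oxygen in DBA/2 cells, against 2.10 and 1.79 CPM at 20%, a log2 fold change of 0.47 ± 0.17 (SE; limma adjusted p = 0.0215). The call was lost without the second 1% library (0.39, adjusted p = 0.134), without the second 20% library (0.40, adjusted p = 0.126), without the filter on low values and in DESeq2. Over its 11 alternatives the adjusted p ran from 0.0215 to 0.134.

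The Hif1a line gave the same direction for 4 of the markers. In Hif1a wild type cells at 1% against 20% oxygen, Plvap, Eomes, Shisa6, Pdx1 and Pax7 fell, none rose, and Tspan8 did not pass the test. Over all genes tested, 34.6% were called lower and 18.4% higher. The members' median log2 fold change was -1.16, against -0.09 over all genes tested. In cells labelled Hif1a KO, Plvap, Eomes, Pdx1, Pax7 and Tspan8 fell and Shisa6 did not pass, beside 54.7% of all genes called lower and 25.2% higher. The members' median there was -1.53, against -0.29 over all genes. Both medians include Pdx1, which passed the filter only through the 20% oxygen libraries. With median-of-ratios scaling, the share of higher among all called genes was 49.7% in place of 34.7% in Hif1a wild type and 53.0% in place of 31.6% in labelled Hif1a KO cells, and the calls of the falling members held.

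Plvap had 3.27 and 3.20 CPM in cells labelled Hif1a KO at 1% oxygen, against 19.8 and 18.9 CPM at 20%. The log2 fold change was -2.27 ± 0.12 (SE; limma adjusted p = 9.8e-13). Hif1a wild type cells had 2.19 and 2.93 CPM of Plvap at 1% oxygen and 17.3 and 17.1 CPM at 20%. All 6 libraries at 20% oxygen in the series lay between 17.1 and 19.8 CPM and all 10 at 1% lay between 2.19 and 6.33 CPM. Plvap was thus higher in every 20% library than in every 1% library, with similar levels in the lines sampled at 20%. Eomes, Pax7 and Pdx1 were so too. Their lowest 20% libraries had 15.1, 14.3 and 1.41 CPM, and their highest 1% libraries 11.2, 13.6 and 0.510 CPM. Pdx1 passed the filter only through the 20% libraries, so its separation is partly selected. The share of all genes separated in this way is not given here, so nothing is read from the number of markers. C57BL/6 cells were sampled at 1% only, so this view mixes line with oxygen.

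Eomes had 2.89 and 2.88 CPM in labelled Hif1a KO cells at 1% oxygen, against 17.2 and 15.1 CPM at 20%, a log2 fold change of -2.14 ± 0.12 (SE; limma adjusted p = 5.5e-12). Hif1a wild type cells had 6.49 and 4.96 CPM of Eomes at 1%, against 21.3 and 19.6 CPM at 20%, a log2 fold change of -1.69 ± 0.12 (SE; limma adjusted p = 1.3e-09). Neither pair of groups overlapped in Eomes.

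Pax7 had 2.89 and 3.23 CPM in labelled Hif1a KO cells at 1% oxygen, against 16.8 and 14.3 CPM at 20%, a log2 fold change of -2.03 ± 0.11 (SE; limma adjusted p = 3.4e-12). In Hif1a wild type cells Pax7 had 5.10 and 6.22 CPM at 1% oxygen, against 18.8 and 18.6 CPM at 20%, a log2 fold change of -1.57 ± 0.11 (SE; limma adjusted p = 9.8e-10). Both pairs of groups lay far apart, where the fall in DBA/2 cells was -0.45.

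Pdx1 was low in the Hif1a line even at 20% oxygen. It had 0.128 and 0.312 CPM in labelled Hif1a KO cells at 1%, against 1.42 and 1.58 CPM at 20%, and 0.510 and 0.455 CPM in Hif1a wild type cells at 1%, against 1.41 and 1.58 CPM at 20%. The log2 fold changes were -1.04 ± 0.14 in labelled Hif1a KO cells (SE; limma adjusted p = 1.3e-06) and -0.75 ± 0.14 in Hif1a wild type cells (SE; limma adjusted p = 0.00019). These calls rest on 10 against 47 reads and on 16 against 56 reads, summed over the libraries of each group.

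Tspan8 was near the detection floor throughout the Hif1a line, where 3 reads were worth at most 0.251 CPM. It had 0.0641 and 0.0779 CPM in labelled Hif1a KO cells at 1% oxygen, which are 3 reads in all, against 0.586 and 0.580 CPM at 20%, which are 18 reads. The ratio of pooled reads per depth was 0.125, with a 95% counting interval of 0.0236 to 0.428, and the limma adjusted p was 0.0013. In Hif1a wild type cells Tspan8 had 0.510 and 0.354 CPM at 1%, against 0.551 and 0.430 CPM at 20%. Those groups overlapped, and the log2 fold change of -0.06 ± 0.14 did not pass (SE; limma adjusted p = 0.75).

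Shisa6 had 2.31 and 2.22 CPM in labelled Hif1a KO cells at 1% oxygen, against 3.01 and 2.85 CPM at 20%, a log2 fold change of -0.27 ± 0.17 that did not pass (SE; limma adjusted p = 0.15). Hif1a wild type libraries had 1.24 and 1.67 CPM at 1%, against 3.12 and 1.86 CPM at 20%. The 20% libraries were far apart, and the log2 fold change of -0.49 ± 0.17 (SE; limma adjusted p = 0.018) lost its call in 5 of 11 alternatives. Without the first 20% library it was -0.23 (adjusted p = 0.331) and without the first 1% library -0.36 (adjusted p = 0.138), within a range of adjusted p from 0.0026 to 0.331.

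**Figure D2:**
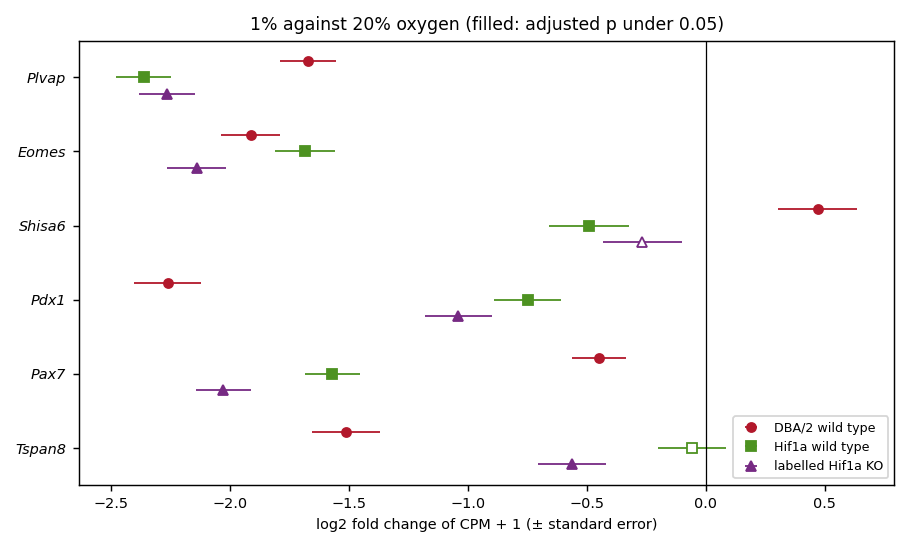
Log2 fold change of CPM + 1 at 1% against 20% oxygen (x axis, bars are standard errors) for the 6 markers (y axis) in DBA/2 wild type, Hif1a wild type and labelled Hif1a KO cells, 2 libraries per group. Filled symbols passed an adjusted p of 0.05. Plvap and Eomes lay between -1.67 and -2.36 and between -1.69 and -2.14, while Pdx1, Pax7, Tspan8 and Shisa6 spread apart by line.

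The oxygen response itself was called different between the wild type lines for 5 of the 6 markers, with the DBA/2 response subtracted from that of Hif1a wild type cells. Among all genes, 30.9% were called lower and 15.1% higher in this difference. Plvap (-0.69 ± 0.16), Pax7 (-1.12 ± 0.16) and Shisa6 (-0.96 ± 0.24) had the lower response in Hif1a wild type cells, with limma adjusted p of 0.0021, 1.6e-05 and 0.0026. Pdx1 (1.51 ± 0.20, adjusted p = 6.2e-06) and Tspan8 (1.46 ± 0.20, adjusted p = 1.1e-05) fell further in DBA/2 cells. Hif1a wild type cells had only 1.49 CPM of Pdx1 and 0.491 CPM of Tspan8 at 20% oxygen. From there, falls as wide as in DBA/2 cells (-2.26 and -1.51) were not possible on the CPM + 1 scale. A difference above 0 was thus fixed by the starting levels, and both genes passed the filter partly through DBA/2 cells at 20%. Eomes did not pass, at 0.23 ± 0.18 (adjusted p = 0.30), an estimate whose standard error leaves room for a difference either way. The calls for these 5 markers held in all 15 alternatives each. The lines differ in strain and may differ in days at 1% oxygen, where the Hif1a names give 6 days and the DBA/2 names none. Sample numbers 17 and 18 stand in the names of the 1% libraries of both lines, so these were numbered in separate sets. Strain, days and numbering set cannot be told apart. The fibroblast sum was 25900 against 7746 CPM in Hif1a wild type cells but 4538 against 5115 CPM in DBA/2 cells.

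At 20% oxygen the lines differed in 3 of the 6 markers. In Hif1a wild type against DBA/2 cells at 20% oxygen, Eomes (20.5 ± 1.18 against 43.7 ± 2.40 CPM), Pdx1 (1.49 ± 0.119 against 5.05 ± 0.0979 CPM) and Tspan8 (0.491 ± 0.0856 against 3.29 ± 0.301 CPM) were lower (SD, n = 2 each). Of all genes, 22.6% were called lower and 26.4% higher. The log2 fold changes were -1.06, -1.28 and -1.52, with limma adjusted p of 1.2e-06, 5.5e-07 and 7.0e-08. Plvap (17.2 ± 0.191 against 18.4 ± 0.445 CPM), Pax7 (18.7 ± 0.149 against 18.9 ± 1.92 CPM) and Shisa6 (2.49 ± 0.891 against 1.94 ± 0.214 CPM) did not pass the test. Shisa6 passed only without the second Hif1a wild type library (0.49, adjusted p = 0.041), where the range over alternatives was 0.041 to 0.891.

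Tspan8 was the marker that differed most between Top1mt wild type cells and the other wild type lines at 1% oxygen. It had 5.64 and 5.96 CPM in Top1mt wild type cells, against 0.499 CPM in each DBA/2 library at 1% oxygen, 11.6-fold higher, with a log2 fold change of 2.18 ± 0.14 (SE; limma adjusted p = 2.4e-10). Eomes (-0.36 ± 0.12, adjusted p = 0.016) and Pax7 (-0.40 ± 0.11, adjusted p = 0.0053) were lower in Top1mt wild type than in DBA/2 cells, beside 32.9% of all genes called lower and 28.9% higher, and Plvap, Shisa6 and Pdx1 did not pass. The Eomes call was lost in 6 of 11 alternatives, among them the fits without the first DBA/2 library (-0.32) and without either Top1mt wild type library (-0.36 and -0.37). The Pax7 call was lost without the first Top1mt wild type library (-0.33). Scaled to the germ cell identity genes, Eomes and Pax7 turned to 0.11 and 0.09 and were not called. In Hif1a wild type against Top1mt wild type cells at 1% oxygen, Tspan8 was 13.4-fold lower (0.510 and 0.354 against 5.64 and 5.96 CPM). Plvap (-1.03), Eomes (-0.47), Shisa6 (-0.50) and Pax7 (-0.73) were lower too on the log2 scale, and Pdx1 did not pass (0.27). Shisa6 lost its call without the first library of either group (-0.45 and -0.37), and Eomes without the second Hif1a wild type library (-0.30). In that comparison 33.9% of all genes were called lower and 24.3% higher. Strain, the days in the library names and the sample numbers differ between Top1mt wild type cells and both other lines and cannot be told apart. The fibroblast sum at 1% oxygen was 15930 CPM in Top1mt wild type, 4538 CPM in DBA/2 and 25900 CPM in Hif1a wild type cells. Tspan8 passed the filter partly through the Top1mt groups, so its tests here are partly selected.

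The order of levels over the 8 groups followed from these differences. Plvap was highest in labelled Hif1a KO cells at 20% oxygen, followed by DBA/2 and Hif1a wild type cells at 20%, then Top1mt wild type, DBA/2, labelled Hif1a KO, Top1mt KO and Hif1a wild type cells at 1%. Only the last neighbours in that order, Top1mt KO and Hif1a wild type, had overlapping libraries. Eomes ran from DBA/2 cells at 20% down to labelled Hif1a KO cells at 1%, with overlap only between Top1mt wild type and Top1mt KO cells. Pax7 had overlap only between its highest groups, DBA/2 and Hif1a wild type cells at 20% oxygen. The 5 highest groups of Shisa6 overlapped each neighbour in turn. Tspan8 was highest in Top1mt wild type cells, and the next groups in its order, Top1mt KO and DBA/2 cells at 20%, overlapped.

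Cells labelled Hif1a KO were also compared with wild type cells of the line. At 1% oxygen Eomes (2.89 and 2.88 against 6.49 and 4.96 CPM), Pax7 (2.89 and 3.23 against 5.10 and 6.22 CPM) and Tspan8 (0.0641 and 0.0779 against 0.510 and 0.354 CPM) were lower in the labelled KO libraries, and Shisa6 (2.31 and 2.22 against 1.24 and 1.67 CPM) was higher. Over all genes tested, 49.1% were called lower and 28.3% higher, so 3 lower and 1 higher of 6 is near the background. The log2 fold changes were -0.78 ± 0.12 for Eomes, -0.71 ± 0.11 for Pax7, -0.42 ± 0.14 for Tspan8 and 0.42 ± 0.17 for Shisa6, with limma adjusted p of 1.1e-05, 1.1e-05, 0.012 and 0.029. Plvap (0.26 ± 0.12, adjusted p = 0.051) and Pdx1 (-0.29 ± 0.14, adjusted p = 0.073) did not pass. Plvap was called higher in 7 of 11 alternatives, among them median-of-ratios scaling (0.48), edgeR and DESeq2, over a range of adjusted p from 1.1e-07 to 0.47. The Shisa6 call was lost without the first (0.40) or second (0.44) labelled KO library, and the Shisa6 (0.29) and Tspan8 (-0.34) calls without the first wild type library.

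The germ cell identity sum in this comparison was 1450 against 3222 CPM and the fibroblast sum 48589 against 25900 CPM. Scaled to the germ cell identity genes, Eomes (0.15) and Pax7 (0.22) turned to positive log2 fold changes that were not called, Tspan8 (-0.26) was not called, and Plvap (1.165) and Shisa6 (1.24) were called higher. That scaling moved the median over all genes to 0.82 from -0.21 as deposited, so Eomes and Pax7 lay below the median of all genes on both scales and Plvap and Shisa6 above it. With median-of-ratios scaling the share of higher among all called genes was 54.2%, in place of 36.6%. The part of the cell mixture in these differences was not tested.

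At 20% oxygen 0 of the 6 markers passed the test between labelled Hif1a KO and wild type cells, where 22.4% of all genes were called. At an unadjusted p under 0.05, limma passed 2 (Eomes and Pax7). Of the members, edgeR called 1 (Eomes) and DESeq2 called 0. Eomes had 17.2 and 15.1 CPM in labelled Hif1a KO cells, against 21.3 and 19.6 CPM in wild type, a log2 fold change of -0.33 ± 0.12 (SE; limma adjusted p = 0.065).

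The difference between the oxygen responses of the genotypes, labelled KO minus wild type, was below 0 for Eomes (-0.46 ± 0.18), Pax7 (-0.46 ± 0.16) and Tspan8 (-0.50 ± 0.20), with limma adjusted p of 0.033, 0.020 and 0.039. Over all genes tested, 39% were called lower and 19% higher in that difference. The calls were lost in 10 of 15 alternatives for Eomes, 8 for Pax7 and 9 for Tspan8, and DESeq2 called 0 members. Leaving out any 1 of the 8 libraries other than the first Hif1a wild type library at 20% oxygen ended at least 1 of the 3 calls, and without the first labelled KO library at 1% all 3 were lost. Under germ cell scaling the differences were 0.24 for Eomes and 0.25 for Pax7, and neither was called. The difference for Plvap was 0.10 ± 0.16 (adjusted p = 0.63), with falls at 1% oxygen of -2.27 in labelled KO and -2.36 in wild type cells. Scaled to the germ cell identity genes the falls were -1.53 and -2.31, and the Plvap difference was called higher (0.78, adjusted p = 0.00068, over a range from 0.00068 to 0.80), as was that of Shisa6 (0.88, adjusted p = 0.0031, over a range from 0.0031 to 0.90), which was not called as deposited (0.22 ± 0.24).

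Top1mt encodes the mitochondrial type I topoisomerase. In Top1mt KO against wild type cells at 1% oxygen, Plvap and Tspan8 were lower and the other 4 markers did not pass. Over all genes tested, 33.2% were called lower and 25.2% higher, so this count too is near the background. Plvap had 2.54 and 2.92 CPM in Top1mt KO cells, against 6.33 and 6.16 CPM in wild type, a log2 fold change of -0.96 ± 0.12 (SE; limma adjusted p = 8.5e-07). The KO mean was 2.29-fold lower with no overlap, and the call held in all 11 alternatives, including -0.62 when scaled to the germ cell identity genes.

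Tspan8 had 4.26 and 3.36 CPM in Top1mt KO cells, against 5.64 and 5.96 CPM in wild type, a log2 fold change of -0.50 ± 0.14 (SE; limma adjusted p = 0.005). Its call was lost without the second KO library (-0.37), in DESeq2 and under germ cell scaling (-0.14), over a range of adjusted p from 0.002 to 0.373. Eomes had 8.97 and 6.94 CPM in Top1mt KO cells against 8.21 and 8.24 CPM in wild type, and the groups overlapped. Pax7 had 12.1 and 12.3 CPM in Top1mt KO cells against 9.52 and 10.6 CPM in wild type, a log2 fold change of 0.26 ± 0.11 that did not pass (SE; limma adjusted p = 0.057). Pax7 was called higher with median-of-ratios scaling (0.31) and in edgeR (0.34). Shisa6 had 2.35 and 3.14 CPM against 2.57 and 2.33 CPM, with overlap. Pdx1 had 3 reads in all in Top1mt KO cells (0.0636 and 0.1101 CPM) against 8 in wild type (0.251 and 0.207 CPM), a ratio of 0.390 with a 95% counting interval of 0.0667 to 1.63, so a difference was not detectable at this depth. Scaled to the germ cell identity genes, which moved the median of all genes to 0.36 from -0.04, Eomes (0.35), Shisa6 (0.46) and Pax7 (0.68) were called higher.

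**Figure D3:**
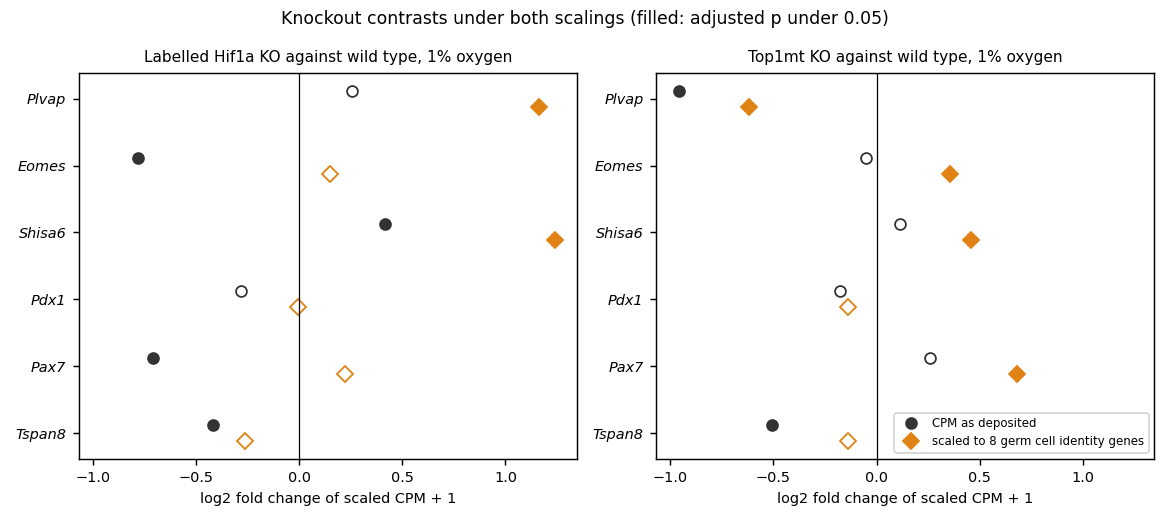
Log2 fold change of the 6 markers (y axis) at 1% oxygen in labelled Hif1a KO against wild type cells (left) and Top1mt KO against wild type cells (right), with CPM as deposited (circles) and with each library scaled to 8 germ cell identity genes (diamonds). Filled symbols passed an adjusted p of 0.05. Plvap in Top1mt KO cells was called lower on both scales, at -0.96 and -0.62, while Eomes and Pax7 in labelled Hif1a KO cells changed sign.

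Beside the subset markers, 17 genes of the GFRA1-positive state as a whole were examined, among them receptors and transcription factors that GDNF signalling maintains. In DBA/2 cells at 1% oxygen 0 of 17 rose and 13 fell, in Hif1a wild type cells 0 rose and 13 fell, and in labelled Hif1a KO cells 0 rose and 16 fell. Of all genes, 25.5%, 34.6% and 54.7% were called lower in these comparisons. With median-of-ratios scaling 2 rose and 10 fell in Hif1a wild type cells, beside 3643 of 14841 genes higher and 3694 lower. Scaled to the germ cell identity genes 3 rose and 10 fell in labelled Hif1a KO cells, beside 10024 of 14841 genes higher and 1361 lower. The list's median log2 fold changes were -0.56, -0.44 and -1.15, against 0.04, -0.09 and -0.29 over all genes. In DBA/2 cells Gfra1 had 109 ± 7.03 CPM at 1% and 250.8 ± 8.18 CPM at 20% oxygen, and Ret, the kinase that GFRA1 partners, had 197 ± 3.17 and 376 ± 11.8 CPM (SD, n = 2 each). Zbtb16, a zinc finger factor of undifferentiated spermatogonia, had 171 ± 9.36 CPM at 1% and 492 ± 8.64 CPM at 20% oxygen. The falls of Pdx1, Eomes, Plvap and Tspan8 in these cells, from -1.51 to -2.26 on the log2 scale, lay near or beyond that of Zbtb16 (-1.52). Zbtb16 was named as the listed gene with the smallest adjusted p, so its fall does not bound those of the list. In Hif1a wild type cells the listed gene T had a log2 fold change of -2.58, where Plvap had -2.36.

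In Top1mt KO against wild type cells 1 of the 17 genes rose and 14 fell (2 and 9 under germ cell scaling), with a median of -0.59 against -0.04 over all genes. Of all genes, 25.2% were called higher and 33.2% lower as deposited. Under germ cell scaling 9570 of 14841 were called higher and 1130 lower. Gfra1 had 57.0 ± 3.91 CPM in Top1mt KO and 288 ± 7.35 CPM in wild type cells (SD, n = 2 each), a log2 fold change of -2.32 ± 0.07 (SE; limma adjusted p = 1.5e-15). In the same cells Plvap (-0.96) and Tspan8 (-0.505) were called lower too. Eomes (-0.05), Pax7 (0.26) and Shisa6 (0.11) did not pass the test, nor did Pdx1 (-0.18), which rests on few reads. The subset markers and Gfra1 thus had unequal changes there. In labelled Hif1a KO against wild type cells at 1% oxygen 1 of 17 rose and 14 fell as deposited, beside 28.3% of all genes higher and 49.1% lower. Scaled to the germ cell identity genes 12 rose and 0 fell. On that scale 12356 of all 14841 genes were called higher and 103 lower, so the rise was not particular to the list.

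Markers of later spermatogonia were read against the same shares of all genes, which were 31.8% higher and 25.5% lower in DBA/2, 18.4% and 34.6% in Hif1a wild type, and 25.2% and 54.7% in labelled Hif1a KO cells. Under germ cell scaling 4443 of 14841 genes were called higher and 3188 lower in DBA/2 cells, and 10024 and 1361 in labelled Hif1a KO cells. Of 6 genes of differentiating spermatogonia, 4 rose and 1 fell in DBA/2 cells at 1% oxygen (3 rose and 1 fell with median-of-ratios scaling, 3 rose and 0 fell under germ cell scaling), 0 rose and 3 fell in Hif1a wild type cells (1 rose and 3 fell with median-of-ratios scaling), and 0 rose and 6 fell in labelled Hif1a KO cells (1 rose and 2 fell under germ cell scaling). Their median log2 fold changes were 0.49, -0.27 and -0.98, against 0.04, -0.09 and -0.29 over all genes. In the response of Hif1a wild type cells minus that of DBA/2 cells, 0 of the 6 were called higher and 6 lower, beside 15.1% and 30.9% of all genes. Stra8, the gene induced by retinoic acid before meiosis, had 161 ± 7.46 CPM at 1% and 86.9 ± 1.48 CPM at 20% oxygen in DBA/2 cells (SD, n = 2 each). Of 7 genes of primed progenitors, 2 rose and 3 fell in DBA/2 cells, 0 rose and 5 fell in Hif1a wild type cells, and 0 rose and 6 fell in labelled Hif1a KO cells (1 rose and 4 fell under germ cell scaling), with medians of 0.08, -0.35 and -1.17. In the difference between the wild type lines 2 of these 7 were called higher and 3 lower.

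**Figure D4:**
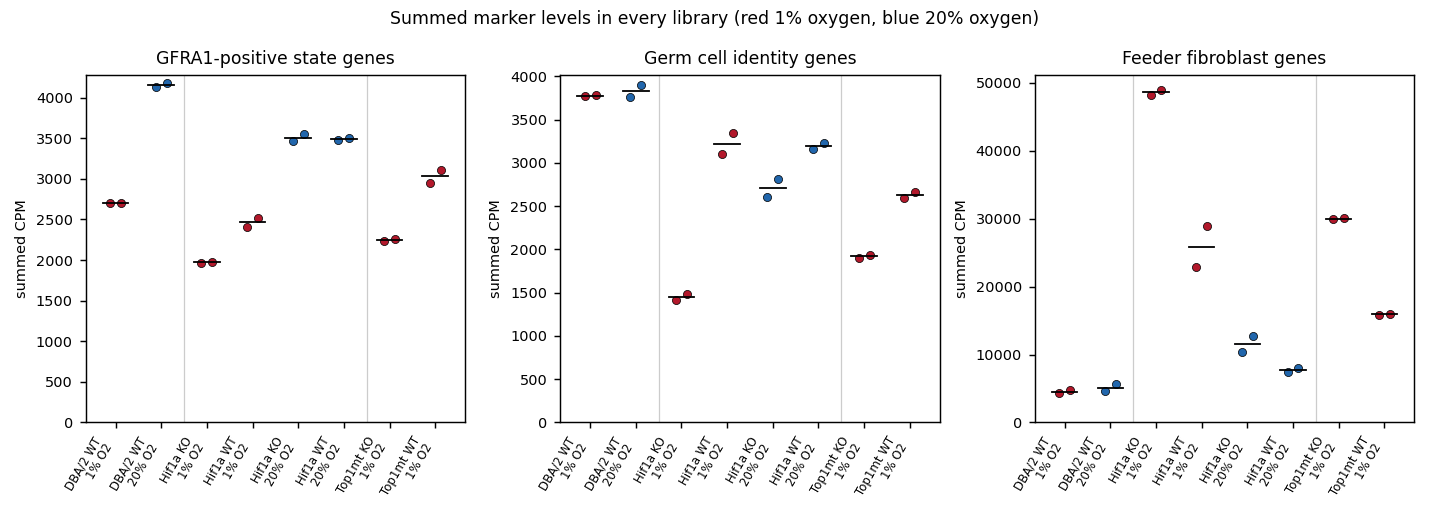
Summed CPM (y axis, linear, from 0) of 17 genes of the GFRA1-positive state, 8 germ cell identity genes and 16 feeder fibroblast genes in each of the 16 libraries, by group (x axis). Points are libraries and bars are group means. The GFRA1-positive state sum was lower at 1% than at 20% oxygen in every line sampled at both, while the fibroblast sum differed up to 48589 against 11513 CPM in labelled Hif1a KO cells.

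Since most of these genes also mark other tissues, markers of those tissues were read beside them. Of 8 endothelial genes 5 passed the filter, of which 1 rose and 2 fell in DBA/2 cells at 1% oxygen. The sum of all 8 was 63.5 CPM at 1% against 57.6 CPM at 20%, while Plvap fell 3.61-fold. Egfl7 rose (25.7 against 12.7 CPM), and Kdr (9.40 against 17.2 CPM) and Cdh5 (2.72 against 4.16 CPM) fell. In the other comparisons in which Plvap was lower the endothelial sum was lower too, at 38.0 CPM at 1% against 45.2 CPM at 20% oxygen in Hif1a wild type cells, 27.2 against 41.6 CPM in labelled Hif1a KO cells, and 42.8 CPM in Top1mt KO against 64.7 CPM in Top1mt wild type cells. Hif1a wild type cells at 1% oxygen, lower in Plvap than Top1mt wild type cells, also had the lower sum. Of the 5 tested endothelial genes 4 fell and 1 rose in labelled Hif1a KO cells at 1% oxygen, 2 fell and 0 rose in Hif1a wild type cells, and 2 were lower and 0 higher in Top1mt KO cells. The myogenic factor gene Myf5 had 0 or 1 read in every library and Myod1 at most 0.509 CPM, beside Pax7 at up to 20.2 CPM. The other genes of the myogenic list were not all low: Cdh15 was at 10.003 to 28.6 CPM, Des at 5.83 to 25.7 CPM, Myog at 0.818 to 2.92 CPM and Pax3 at 0.146 to 1.04 CPM. Of 10 mesendoderm and pancreas genes, 4 passed the filter, and the pancreatic genes Ptf1a, Nkx6-1 and Neurod1 were at most 1.10, 0.962 and 0.363 CPM. The summed level of 8 epithelial genes was 139 CPM at 1% against 61.6 CPM at 20% oxygen in DBA/2 cells, where Tspan8 fell. Of the 8, 4 rose and 0 fell there, beside 31.8% and 25.5% of all genes. Krt19 (47.8 against 2.82 CPM) and Muc2 (21.3 against 0.34 CPM) made up most of that difference. The sum was 281 CPM in Top1mt KO against 191 CPM in Top1mt wild type cells. There 3 of the 8 were higher and 0 lower, beside 25.2% and 33.2% of all genes, and Krt19 (160 against 84.1 CPM) made up most of the difference. The sum also ran against Tspan8 in labelled Hif1a KO against wild type cells at 1% oxygen (54.0 against 44.3 CPM). So it did in Hif1a wild type against DBA/2 cells at 20% (65.3 against 61.6 CPM). It ran with Tspan8 in labelled Hif1a KO cells at 1% against 20% oxygen (54.0 against 63.1 CPM). At 1% oxygen it did so in Hif1a against Top1mt wild type (44.3 against 191 CPM) and Top1mt wild type against DBA/2 cells (191 against 139 CPM). The part of these tissue genes in the changes of the 6 markers was not tested.

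Among the markers themselves, levels over the 16 libraries ran most alike for Eomes and Pax7 (Pearson r of log2(CPM + 1) = 0.883), Eomes and Pdx1 (0.872) and Plvap and Eomes (0.844). Shisa6 ranged from -0.217 with Pdx1 to 0.354 with Pax7, and Tspan8 from 0.0351 with Shisa6 to 0.358 with Pax7. The 16 libraries share groups, lines and oxygen levels, so these are descriptions without a test. Against the log2 fibroblast sum, Eomes (-0.826) and Pax7 (-0.807) ran most inversely, and Tspan8 (-0.0873) and Shisa6 (-0.234) least.

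Over the same 16 libraries, the genes whose log2(CPM + 1) was most like Plvap were Pcdh1 (r = 0.981), Prkd2, B4galt4, Cbln2 and Ramp2. For Eomes they were Elp5 (0.987), Fhl3, Klf10, Sema7a and Scube3, and for Pdx1 Hivep2 (0.985), Cyp2u1, Aacs, Fam214a and St8sia1. Pax7 was most like Mks1 (0.97), Polr2j, Pym1, Abhd11 and Ryr1, and Tspan8 most like Foxp1 (0.952), Ube2h, Gata2, Ldhb and Tmcc3. The best match to Shisa6, Uqcrc2, reached only 0.812, followed by Nradd, Prkar2a, Gatd1 and Des. The best of so many correlations is high for most genes in libraries that share groups, so the values rank genes and carry no test.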

How the data were processed

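The authors deposited 1 table of CPM (reads per 1000000) for protein-coding genes in 16 libraries. Per the labels' protocols, libraries were made from 200 ng total RNA with a TruSeq stranded mRNA kit. Per the submitters' processing notes, STAR 2.6.0c, cutadapt 1.16, HTSeq 0.11.2, DESeq2 1.22.2 and mm10 were used, while their roles, the annotation and the strand setting are not given in the sources used here. All values were whole multiples of 1 read (100%, tolerance 0.01), which gave depths of 11942104 to 25659895 reads, and 3 reads correspond to 0.117 to 0.251 CPM. Counting intervals and floors cover counting error only. Each column maps to 1 library, and 0 columns were left out.

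Here log2(CPM + 1) was fitted with limma 3.58.1 in R 4.3.3: all 16 libraries, 1 mean per group, empirical Bayes with trend, no block, and Benjamini-Hochberg adjustment over the 14841 of 21924 genes with at least 1 CPM in at least 2 libraries. Calls are at an adjusted p of 0.05. The fit was checked on simulated data. Alternatives were a pseudocount of 0.25, no filter, median-of-ratios scaling, edgeR 4.0.16 and DESeq2 1.42.0 on recovered reads, a replicate block, leaving out each library in turn and, added after seeing the data, scaling to the summed CPM of 8 germ cell identity genes. Replicates within a group differed by more than counting noise.

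The members and the 15 gene lists were chosen with earlier results of these data known. Named genes are the members, the targeted genes, the 5 genes most correlated with each member, and up to 3 genes per list with the smallest adjusted p. List genes at or near 0 and Ddx4 and Dazl, given to show levels, were named outside that rule, after their values were seen.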

Additional observations from a re-analysis of the deposited data

Results flagged for a closer look

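The members' oxygen responses differed between groups in 8 tests of the difference itself, each given as a difference of log2 fold changes of CPM + 1 with its limma adjusted p. Between Hif1a wild type and DBA/2 cells, Plvap (-0.69, adjusted p = 0.0021), Pax7 (-1.12, adjusted p = 1.6e-05) and Shisa6 (-0.96, adjusted p = 0.0026) had the lower response in Hif1a wild type cells. Of all genes, 30.9% were called lower and 15.1% higher in this difference. Shisa6 was the marker whose measured response changed sign, at -0.49 in Hif1a wild type and 0.47 in DBA/2 cells, both of which lost their call in some alternatives. Pdx1 (1.51, adjusted p = 6.2e-06) and Tspan8 (1.46, adjusted p = 1.1e-05) fell further in DBA/2 cells, where both had a higher level at 20% oxygen, Pdx1 at 5.05 CPM and Tspan8 at 3.29 CPM against 1.49 and 0.491 CPM in Hif1a wild type cells. From those lower levels a fall as wide as in DBA/2 cells was not possible on the CPM + 1 scale, so a difference above 0 was fixed in advance.

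Between cells labelled Hif1a KO and wild type, Eomes (-0.46, adjusted p = 0.033), Pax7 (-0.46, adjusted p = 0.020) and Tspan8 (-0.50, adjusted p = 0.039) had the lower response in the labelled KO cells. Direction and call held in only 5 of 15 alternatives for Eomes, 7 for Pax7 and 6 for Tspan8. Of all genes, 39% were called lower and 19% higher in this difference, so 3 lower of 6 is near the background. The germ cell identity sum was 1450 CPM in the labelled KO cells at 1% oxygen against 3222 CPM in wild type, and its part in these differences was not tested. Groups of 2 libraries allow no check for a library far from the rest.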

How the results depend on the processing

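Of 774 member results under alternatives, 673 kept direction and call, 53 lost and 25 gained a call, and 23 reversed. In the oxygen comparisons the calls for Plvap, Eomes, Pdx1 and Pax7 held in all 11 alternatives in each line, as did Tspan8 in DBA/2 and labelled Hif1a KO cells. Scaling to the germ cell identity genes reversed Shisa6 in labelled Hif1a KO cells at 1% against 20% oxygen (0.41, adjusted p = 0.034, range 0.034 to 0.993), Eomes (0.15) and Pax7 (0.22) in labelled KO against wild type at 1%, Eomes in Top1mt KO against wild type (0.35), Eomes (0.24) and Pax7 (0.25) in the genotype difference of responses, Plvap (0.15) and Pax7 (0.23) in Hif1a wild type against DBA/2 at 20%, and Eomes (0.11), Shisa6 (0.14), Pdx1 (0.057) and Pax7 (0.087) in Top1mt wild type against DBA/2 at 1%. It called 2 members in labelled KO against wild type at 1% in place of 4, 1 at 20% in place of 0 (with 6208 genes in all in place of 3329), and 4 in Top1mt KO in place of 2. It moved the median of all genes to 0.51 in labelled KO at 1% against 20% oxygen, 0.82 and 0.19 in labelled KO against wild type at 1% and 20%, 0.36 in Top1mt KO, 0.64 in the genotype difference, 0.25 and 0.44 in Hif1a and Top1mt wild type against DBA/2, and -0.32 in Hif1a against Top1mt wild type. Under it 88.1% of called genes were higher in labelled KO at 1% against 20% oxygen, 99.2% and 99.15% in labelled KO against wild type at 1% and 20%, 89.4% in Top1mt KO, 99.3% in the genotype difference, 87.4% and 92.5% in Hif1a and Top1mt wild type against DBA/2, and 13.2% in Hif1a against Top1mt wild type, where CPM as deposited gave 31.6%, 36.6%, 57.4%, 43.1%, 32.8%, 53.9%, 46.7% and 41.8%. The cause was not tested.

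DESeq2 called 1 member in Top1mt KO and 0 in the genotype difference of responses, where median-of-ratios scaling and edgeR called 1 each in place of 3. At 20% oxygen edgeR called 1 in labelled KO against wild type. Median-of-ratios scaling changed the share of higher among called genes to 61.4% from 32.8% in the genotype difference and to 51.5% from 32.9% in the line difference. Replicate numbers were not shown to pair libraries: with 2 per group the correlation of deviations ran from -0.0635 to 0.274 over pairs of groups. The replicate block called 1 member (Eomes, adjusted p = 0.044) in labelled KO against wild type at 20% oxygen and lost Tspan8 in the genotype difference (-0.50, adjusted p = 0.056), and it changed no other member call.

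Leaving out each library in turn gave 2 to 5 members called in labelled KO against wild type at 1%, 1 to 2 in Top1mt KO, 0 to 3 in the genotype difference, 1 to 3 in Top1mt wild type against DBA/2, and 1508 to 2957 genes in all in labelled KO against wild type at 20% (lowest without the first wild type library). With a group reduced to 1 library, that library is assumed to vary like the others. Values that crossed 0 ran from -0.14 to 0.020 for Tspan8 in Hif1a wild type at 1% against 20%, -0.070 to 0.46 for Shisa6 and -0.044 to 0.054 for Pdx1 in labelled KO against wild type at 20%, -0.22 to 0.11 for Eomes and -0.040 to 0.26 for Shisa6 in Top1mt KO, -0.055 to 0.25 for Plvap and -0.039 to 0.49 for Shisa6 in the genotype difference, -0.11 to 0.090 for Pax7 and -0.037 to 0.49 for Shisa6 in Hif1a wild type against DBA/2, and -0.081 to 0.0023 for Pdx1 in Top1mt wild type against DBA/2, and 1 such value was called, Shisa6 in Hif1a wild type against DBA/2 (0.49). Pdx1 and Tspan8 rest on 3 reads in their lowest groups.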

Other observations

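Other transcription factors of embryonic lineages went both ways at 1% oxygen, with 1 higher and 2 lower of the 4 mesendoderm and pancreas genes tested in DBA/2 cells, 1 higher and 2 lower in Hif1a wild type cells and 1 higher and 3 lower in labelled Hif1a KO cells. Cdx2, a homeobox factor of trophoblast and intestine and the 1 of 4 trophoblast genes that passed the filter, had 1.34 ± 0.292 CPM at 1% and 9.63 ± 1.71 CPM at 20% oxygen in DBA/2 cells (SD, n = 2 each), a log2 fold change of -2.18 (limma adjusted p = 7.7e-10). It also fell in Hif1a wild type (-1.27, adjusted p = 1.6e-06) and labelled Hif1a KO cells (-1.07, adjusted p = 3.5e-06). Foxa2, a forkhead factor of endoderm, fell to 5.40 ± 0.902 CPM at 1% in DBA/2 cells, against 18.2 ± 1.34 CPM at 20%, and Gsc, a homeobox factor of the organizer, to 0.576 ± 0.173 against 3.03 ± 0.124 CPM (SD, n = 2 each). Mixl1, a homeobox factor of mesendoderm, rose there, with 3.18 ± 0.0539 CPM at 1% and 1.90 ± 0.149 CPM at 20% oxygen (log2 0.53, limma adjusted p = 0.015), and fell in labelled Hif1a KO cells (-0.76, adjusted p = 0.00059). Gata6, a zinc finger factor of endoderm, rose in Hif1a wild type (0.63, adjusted p = 0.0022) and labelled Hif1a KO cells (1.25, adjusted p = 4.2e-07).

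The list counts that follow stand beside 31.8% of all genes higher and 25.5% lower in DBA/2, 18.4% and 34.6% in Hif1a wild type, and 25.2% and 54.7% in labelled Hif1a KO cells, and nothing is read from those near these shares. Of the 6 SHISA family genes tested beside Shisa6, 3 rose and 0 fell in DBA/2 cells at 1% oxygen, 2 rose and 1 fell in Hif1a wild type cells, and 2 rose and 3 fell in labelled Hif1a KO cells. Of 9 WNT signalling readouts tested, 4 rose and 3 fell in DBA/2, 1 rose and 5 fell in Hif1a wild type and 1 rose and 7 fell in labelled Hif1a KO cells. Axin2, a feedback inhibitor of WNT signalling, had 21.9 ± 1.18 CPM at 1% and 13.55 ± 0.395 CPM at 20% oxygen in DBA/2 cells (SD, n = 2 each), and rose (log2 0.65, limma adjusted p = 9.2e-06). All 8 hypoxia target genes rose at 1% oxygen in each of the 3 oxygen comparisons. Of 3 testis somatic genes tested, 2 fell in DBA/2 and 2 in Hif1a wild type cells, with 1 rise and 1 fall in labelled Hif1a KO cells, and of 4 leukocyte genes 1 fell in DBA/2 cells, 1 rose and 1 fell in Hif1a wild type and 2 rose in labelled Hif1a KO cells. Of 3 myogenic genes tested, 1 rose in DBA/2, 3 fell in Hif1a wild type and 2 fell in labelled Hif1a KO cells.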
